A study of Homo sapiens with 10 samples.

Results

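The ATP-binding cassette (ABC) transporter family was examined in 10 subclones of U87MG, an established human glioma line. Its members were the rows of the deposited expression table whose symbol begins with ABCA, ABCB, ABCC, ABCD or ABCG and a digit, and 33 of 11880 gene symbols met this rule. The group holds 32 protein-coding genes and ABCA11P, a transcribed pseudogene. Another 9 protein-coding genes of the RefSeq annotation with such names (ABCA9, ABCA10, ABCA13, ABCB5, ABCB10, ABCC6, ABCC11, ABCC12 and ABCG8) were not analysed here. All samples form 1 group. Each culture descends from a single cell of the same untreated line, was kept in serum-containing medium on plastic and was harvested while dividing; the subclones are numbered 1, 2, 3, 5, 6, 8, 9, 10, 11 and 12. RNA of each was hybridised to 1 array, so no value has a replicate of its own, and a difference between 2 subclones cannot be set against the spread within either. An SD below is the spread over the 10 subclones. P-values describe these arrays, whose differences may be partly technical.

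ABC transporters bind and split ATP in paired nucleotide-binding domains and use the energy to move a substrate across a membrane. Several act as drug efflux pumps at the plasma membrane: ABCB1 (P-glycoprotein) and ABCG2 (breast cancer resistance protein) keep many drugs out of the brain at the blood-brain barrier, and pumps of the ABCC branch export drugs and their conjugates with glutathione, glucuronate or sulphate. Most ABCA members and part of the ABCG branch move lipids, and a further set works in the membranes of mitochondria, lysosomes and peroxisomes.

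The promoter windows of 3 members are shown because these genes, described below, differed in level over the subclones while their promoters differ in base composition. Each window holds 250 bases before and 50 after a RefSeq transcription start (GRCh38.p14), read 5′ to 3′ on the gene's strand. ABCC2 lies at chr10:99782390-99782689 (plus strand), ABCC4 at chr13:95301402-95301701 (minus strand) and ABCA1 at chr9:104928106-104928405 (minus strand). Capitals mark every match, on either strand, to 1 of 5 motifs: the GC box GGGCGG, the E-box CACGTG, the TATA motif TATAAA, the antioxidant response element core TGACNNNGC and the xenobiotic response element core TNGCGTG.
ABCC2: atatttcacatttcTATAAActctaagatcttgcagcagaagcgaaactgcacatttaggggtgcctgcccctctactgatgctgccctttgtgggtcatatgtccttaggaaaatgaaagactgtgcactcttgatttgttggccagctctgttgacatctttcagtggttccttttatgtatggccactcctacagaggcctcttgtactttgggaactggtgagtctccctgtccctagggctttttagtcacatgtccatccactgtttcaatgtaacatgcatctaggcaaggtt
ABCC4: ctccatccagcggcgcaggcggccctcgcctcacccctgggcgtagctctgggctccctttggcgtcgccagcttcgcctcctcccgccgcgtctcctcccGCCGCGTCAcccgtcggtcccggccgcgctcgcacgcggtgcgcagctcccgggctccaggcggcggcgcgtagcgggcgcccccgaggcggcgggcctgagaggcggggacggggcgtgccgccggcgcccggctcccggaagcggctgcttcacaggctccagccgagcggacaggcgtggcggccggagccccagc
ABCA1: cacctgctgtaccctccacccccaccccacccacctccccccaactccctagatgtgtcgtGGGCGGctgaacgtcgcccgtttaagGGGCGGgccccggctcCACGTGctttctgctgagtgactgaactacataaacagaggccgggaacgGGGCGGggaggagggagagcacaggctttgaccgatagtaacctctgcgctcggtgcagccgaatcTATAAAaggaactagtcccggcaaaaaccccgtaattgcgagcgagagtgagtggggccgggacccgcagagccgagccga
The ABCC2 window held 1 CpG and 45% G and C, the ABCC4 window 47 CpGs and 79.7%, and the ABCA1 window 23 CpGs and 62.7%. In ABCC2 the only match was TATAAA, beginning 236 bases before the start. In ABCC4 the only match was the antioxidant response element core, on the opposite strand. ABCA1 held 3 GC boxes, an E-box beginning 147 bases before the start and TATAAA beginning 31 bases before it, and no match overlapped another. Over the 8484 genes of the table with a window (the first listed start of each), GGGCGG was present in 63.5%, TGACNNNGC in 14.8%, CACGTG in 9.52%, TATAAA in 8.40% and TNGCGTG in 6.52%. A match describes letters in a window and is not a binding site.

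A gene was analysed for its spread if, in its brightest subclone, it reached the table median (5.00, log2, over all genes and arrays). Of the 33 ABC genes 13 met this (39.4%), against 59.7% of all genes. They are called the tested members. Of the drug efflux pumps named in the family (ABCB1, ABCC1 to ABCC5 and ABCG2) 6 of 7 were tested, of the lipid transporters 3 of 13, of the organelle transporters 3 of 8, and of the other members 1 of 5. ABCC10, with a highest value of 5.39, lay just inside the limit, and ABCB8, with a highest value of 4.87, lay just outside. In all 10 subclones 6 members were at or above 5.00, among them ABCA1, ABCC1, ABCC3, ABCC4 and ABCD3. The share of all genes that did so was not counted, so this number is not read as high or low. Probes differ in brightness, so levels of different genes are not ranked against each other, and a gene below the table median is not shown to be silent. Promoter windows were at hand for 23 members: the 10 tested ones had a median of 24.5 CpGs (1 to 47) and the 13 others 15 (1 to 29), in overlapping ranges, beside medians of 27 and 15 for all tested and all other genes.

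The arrays were not fully alike. The median of all values lay between 4.87 (subclone 10) and 5.11 (subclone 9), and the median deviation of tested genes from their means was -0.29 in subclone 10, 0.11 in subclone 9 and between -0.08 and 0.06 in the others. Of 7 glioma and astrocyte markers, NES and CD44 reached the table median and GFAP, SOX2, OLIG2, S100B and AQP4 reached it in 0 subclones. The 5 endothelial markers PECAM1, CDH5, VWF, CLDN5 and TEK were at most 4.70. Of 3 macrophage and leukocyte markers 1 reached the table median, CSF1R with 5.59 in subclone 1, while CD14 was at most 4.55 and PTPRC at most 3.34. Of the neuron markers SNAP25 was between 6.12 and 8.08, and SYT1 had 6.26 in subclone 9, with no other subclone above 3.76. Of 4 pericyte and fibroblast markers 3 reached the table median: COL1A1 (5.98 to 8.36), PDGFRB (5.77 to 7.58) and DCN (4.50 to 5.73). COL1A1 and PDGFRB were lowest in subclone 9, where ABCC2, ABCC3 and ABCB6 were also lowest; the part of these marker levels in the results was not tested.

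Among the drug efflux pumps, ABCC2 and ABCC3 differed most between subclones. ABCC2, which exports conjugated organic anions and is best known from the canalicular membrane of liver cells, had the widest range of all members. Its lowest value was 4.07 in subclone 9, its median 5.68 and its highest 6.54 in subclone 1, a range of 2.48 log2 units or 5.56-fold (mean 5.56 ± 0.68, SD, n = 10). The next lowest subclone was subclone 11 at 5.09, and without subclone 9 the range was 1.45; the gap ratio of 0.413 did not pass Dixon's critical value. ABCC3, a related exporter of glucuronides and bile salts, ranged from 5.28 in subclone 9, with 5.30 in subclone 11, over a median of 6.55 to 7.60 in subclone 2 (6.49 ± 0.87, SD, n = 10; 5.00-fold). Its values showed no clear break: subclones 2, 5, 12 and 3 were at 7.60, 7.41, 7.25 and 7.11, subclones 8, 1 and 6 at 6.86, 6.23 and 6.09, and subclones 10, 11 and 9 at 5.73, 5.30 and 5.28. Both pumps were therefore lowest in subclone 9, also after each array's median was subtracted.

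**Figure D1:**
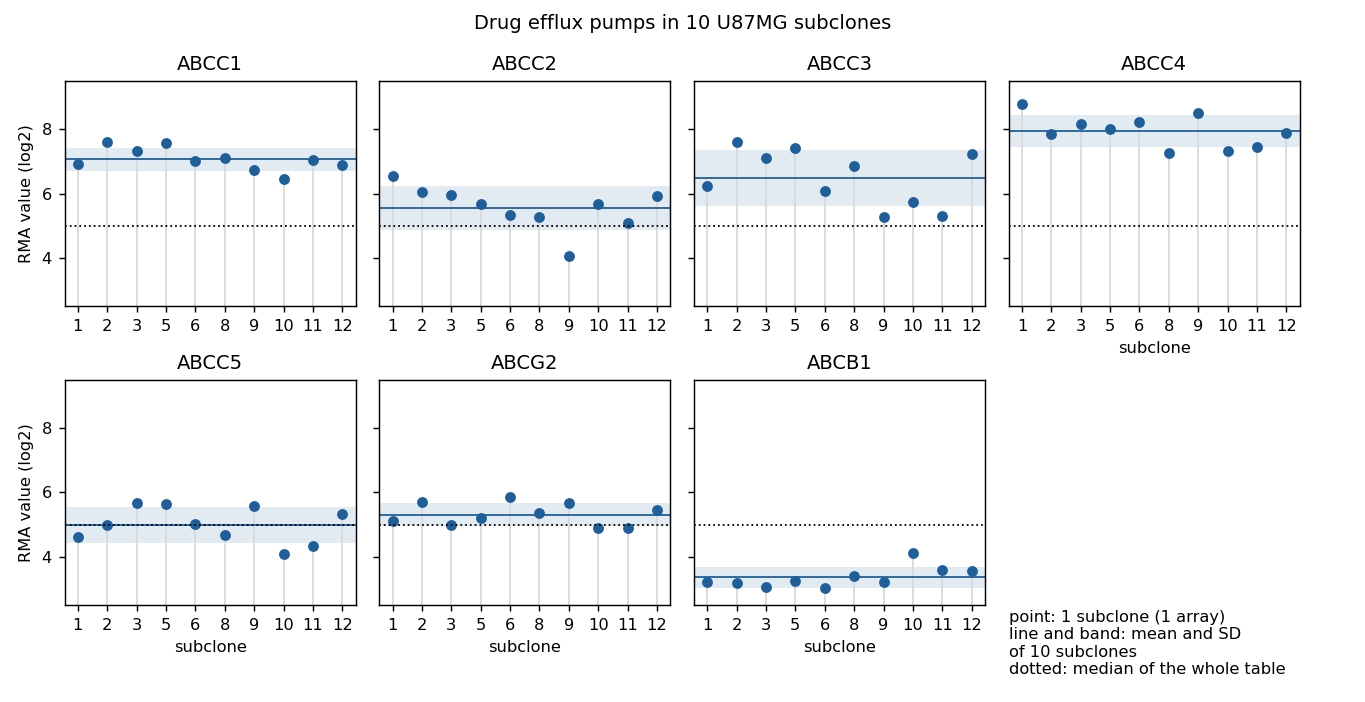
RMA values (log2, vertical axis) of the 7 drug efflux pumps in each of the 10 subclones (horizontal axis); a point is 1 array, the line and band are the mean and SD of the 10 subclones, and the dotted line is the table median of 5.00. ABCC2 and ABCC3 show the widest ranges, 2.48 and 2.32 log2 units, and ABCB1 lies below the dotted line in every subclone.

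The remaining ABCC pumps had narrower ranges and other orders of subclones. ABCC4, which exports cyclic nucleotides and prostaglandins as well as drugs, was lowest in subclone 8 (7.26), had a median of 7.94 and was highest in subclone 1 (8.78), with subclone 9 next at 8.51. ABCC5, an exporter of cyclic GMP and nucleotide analogues, was lowest in subclone 10 (4.09), had a median of 5.00 and was highest in subclone 3 (5.68), with 5.63 in subclone 5 and 5.58 in subclone 9. Subclone 9 was thus at the low end for ABCC2 and ABCC3 and near the high end for ABCC4 and ABCC5. ABCC1, a broad exporter of glutathione conjugates, was lowest in subclone 10 (6.47), had a median of 7.03 and was highest in subclone 2 (7.62), with 7.59 in subclone 5. After the median deviation of each array was subtracted, the lowest subclone for ABCC1 was subclone 9, and its range was 0.92 in place of 1.15.

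Of the multidrug pumps ABCG2 was tested and ABCB1 was not. ABCG2 was at or above the table median in 7 of 10 subclones. It ranged from 4.90 in subclone 11, with 4.90 also in subclone 10, over a median of 5.29 to 5.85 in subclone 6, a range of 0.96 (5.31 ± 0.35, SD, n = 10). With each array's median subtracted, its lowest subclone was subclone 3. ABCB1 was between 3.02 (subclone 6) and 4.12 (subclone 10), with a median of 3.24, and did not reach the table median in any subclone. Its value in subclone 10 stood above those in the others, which ended at 3.58 in subclone 11. ABCB4, a phosphatidylcholine floppase of bile whose gene lies next to ABCB1 on chromosome 7 in the annotation, was also highest in subclone 10, at 4.12 against at most 3.53 in the others. Subclone 10 was likewise the highest for ABCA4 and ABCC8, on other chromosomes, and for 21.1% of all 4785 genes below the table median.

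Relations between members were tested for textbook pairs. Of 6 planned pairs 4 had both genes in the table, and p-values were adjusted over these 4 by the Benjamini-Hochberg method. The organic anion pumps ABCC1 and ABCC3 had the highest correlation over the 10 subclones, with a Pearson r of 0.73 (2-sided permutation p = 0.0165, adjusted p = 0.0662) and a Spearman rho of 0.70 (permutation p = 0.0309, adjusted p = 0.124). The pair did not pass the threshold of 0.05 after adjustment. Without subclones 2 and 10, the farthest from the ABCC1 median, r was 0.63 (exact permutation p = 0.0864, adjusted p = 0.346). Without subclone 11 or without subclone 12, r was 0.81 and 0.84 (adjusted exact permutation p = 0.0330 and 0.0182). The pair did not pass without any other single subclone. There the adjusted exact permutation p lay between 0.0582 (without subclone 3) and 0.217 (without subclone 2). The call thus depends on the subclones included. Subclones 2, 5 and 3 held the highest ABCC1 values (7.62, 7.59 and 7.33) and had 7.60, 7.41 and 7.11 for ABCC3. Leaving these subclones out together was not tested. The permutations treat all subclones as independent.

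The other pairs described here did not pass the test. ABCB1 and ABCG2 had an r of -0.53 (permutation p = 0.110, adjusted p = 0.221) and a rho of -0.56 (permutation p = 0.0974, adjusted p = 0.195). Without subclones 10 and 11, r was -0.09 (exact permutation p = 0.842), so this relation rests on those subclones, and ABCB1 was below the table median throughout. The sterol exporters ABCA1 and ABCG1, both known targets of the liver X receptors, had an r of -0.36 (permutation p = 0.308, adjusted p = 0.411) and a rho of -0.39 (permutation p = 0.263, adjusted p = 0.350), and r was -0.14 without subclones 1 and 6 (exact permutation p = 0.728). ABCG1 was also below the table median in every subclone, between 3.50 and 3.81, which limits what this pair can show.

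Among the lipid transporters 3 of 13 were tested, each with a different subclone at its low end. ABCA1, which hands cellular cholesterol and phospholipid to apolipoproteins, was lowest in subclone 1 (7.85), had a median of 8.98 and was highest in subclone 11 (9.71), a 3.63-fold range (8.89 ± 0.58, SD, n = 10). Subclone 6 was the next lowest at 8.21, and subclone 9 the next highest at 9.48. ABCA5, an endosomal and lysosomal transporter, was lowest in subclone 6 (4.50), had a median of 5.06 and was highest in subclone 12 (6.03), above subclone 5 at 5.64. ABCA3, which loads surfactant lipid into lamellar bodies of the lung, had 2 low values, 4.95 (subclone 5) and 4.96 (subclone 6), while the other 8 subclones lay between 5.46 and 5.96. The 10 lipid transporters that were not tested, among them ABCA2, ABCA7, ABCG1, ABCG4 and ABCG5, lay between 3.01 and 4.65. ABCG1, which moves sterols to high-density lipoprotein, stayed between 3.50 and 3.81 in all subclones (range 0.30). The range was 0.46 with each array's median subtracted and 0.62 with the median deviation of tested genes subtracted. ABCA6 and ABCA8, which belong to a gene cluster on chromosome 17 with ABCA5, were at most 3.49 and 3.41.

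Of the 3 tested organelle transporters 1, ABCB6, spanned 2-fold. ABCB6, a porphyrin transporter described in mitochondria and lysosomes, was at 4.70 in subclone 9 and between 5.53 and 6.05 in the others (median 5.72), so subclone 9 stood apart; the range was 0.52 without it and 1.35 with it. ABCD3, a peroxisomal importer of branched and long-chain acyl-CoA, ranged from 6.79 in subclone 11 over a median of 7.36 to 7.69 in subclone 1 (7.30 ± 0.27, SD, n = 10). ABCB8, ABCB9, ABCD2 and ABCD4 stayed below the table median. ABCB8, a mitochondrial transporter, was highest in subclone 11 (4.87) and lowest in subclone 8 (3.77).

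The 5 other members comprised ABCC10, ABCC8, ABCC9, ABCB11 and ABCA11P. ABCC10, a further drug and lipophilic anion exporter, was lowest in subclone 8 (4.13), had a median of 4.98 and was highest in subclone 3 (5.39), followed by subclone 6 at 5.38. Without subclone 8 its range was 0.78, against 1.27 with it. ABCC8 and ABCC9 encode the sulphonylurea receptors, which regulate potassium channels rather than transport a substrate. They were between 3.70 and 4.65 and between 3.59 and 4.18, with their highest values in subclones 10 and 9. Of their channel partners, KCNJ8 was between 3.35 and 3.69 and KCNJ11 was not analysed here. ABCB11, the bile salt export pump of liver, was between 3.35 and 3.83.

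**Figure D2:**
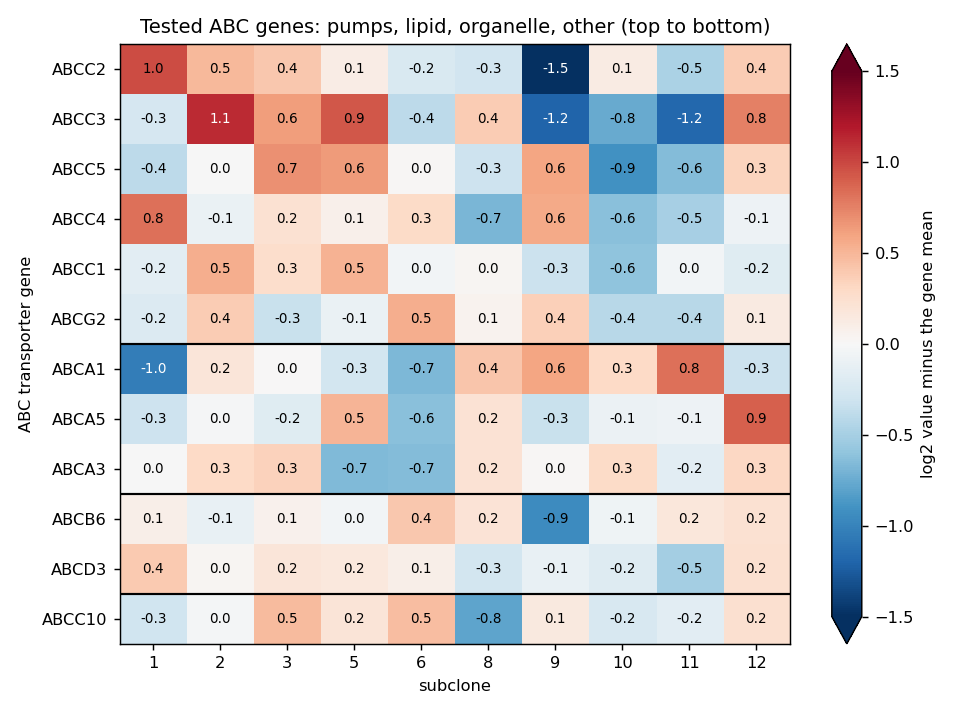
Log2 value minus the gene's mean over the 10 subclones (colour and printed number) for 12 of the 13 tested ABC genes (rows, separated by class) in each subclone (columns); each cell is 1 array. The strongest deviations are those of ABCC2 in subclone 9 (4.07 against a mean of 5.56) and of ABCC3 in subclones 9 and 11 (5.28 and 5.30 against a mean of 6.49).

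The classes were compared through the mean deviation of their tested members from the gene means, minus the median deviation of all tested genes on that array. For the 6 drug efflux pumps this score was highest in subclones 2, 5 and 3 (0.35, 0.31 and 0.25) and lowest in subclones 11, 9 and 10 (-0.46, -0.36 and -0.24). For the 3 lipid transporters it was highest in subclone 10 (0.45) and lowest in subclone 6 (-0.67), and for the 3 organelle transporters highest in subclone 6 (0.26) and lowest in subclone 9 (-0.42). Subclone 6 thus lay at opposite ends of the lipid and the organelle scores, and subclones 10 and 11 were low for pumps (-0.24 and -0.46) and above 0 for lipid transporters (0.45 and 0.28). The value of subclone 10 depends on the subtraction, since its own median deviation was -0.29. Without it, the lipid score was 0.17 in subclone 10 and 0.20 in subclone 11 and was highest in subclone 12 (0.29), and the pump score was -0.53 in subclone 10 and -0.54 in subclone 11. Judged gene by gene, the tested member farthest from the median of the other 9 was ABCC3 in subclones 2, 3, 5, 10, 11 and 12, ABCA1 in subclone 1, ABCA3 in subclone 6, ABCC10 in subclone 8 and ABCC2 in subclone 9. The scores rest on few genes of 1 array each. Before subtraction, ABCA1 lay above its mean in subclone 11 (9.71 against 8.89), while ABCA5 (5.06 against 5.13) and ABCA3 (5.46 against 5.62) lay below theirs. In subclone 9 ABCC1, ABCC2 and ABCC3 lay below their means, while ABCC4, ABCC5 and ABCG2 lay above theirs. Without subclone 9 the range of the organelle score was 0.40 in place of 0.68, since ABCB6 carried it. With all 8 organelle transporters included, that score was highest in subclone 1 in place of subclone 6.

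**Figure D3:**
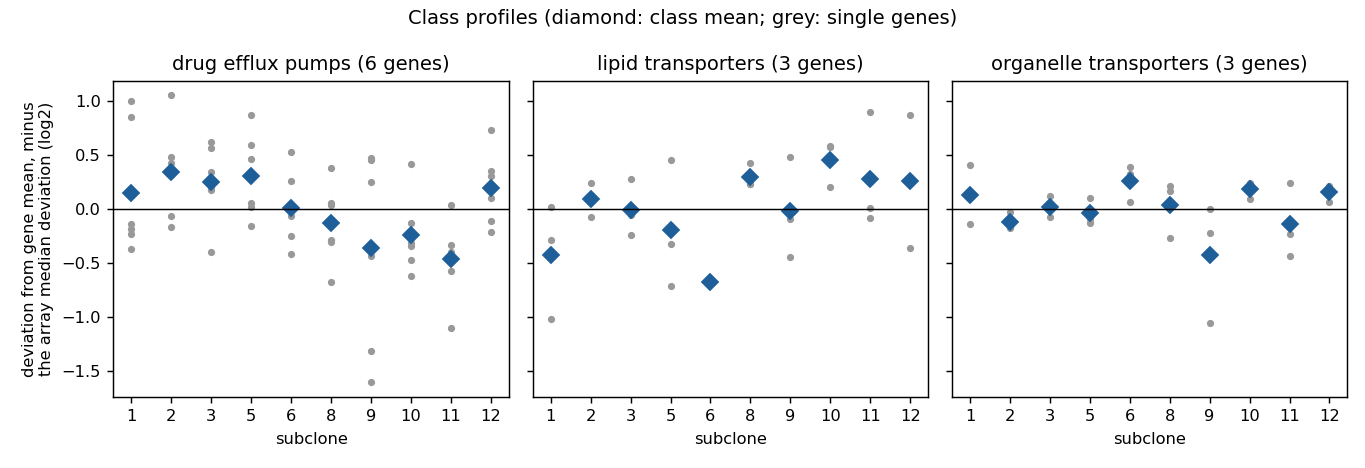
Deviation from the gene mean minus the array's median deviation (log2 units, vertical axis) by subclone (horizontal axis) for the tested members of 3 classes; diamonds are class means, grey points single genes, each from 1 array. Pump means run from 0.35 in subclone 2 to -0.46 in subclone 11, and in subclone 6 the lipid mean is -0.67 while the organelle mean is 0.26.

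The subclones holding the members' extremes were counted beside those of all genes. Subclone 9 was the lowest for 3 of the 13 tested members (ABCC2, ABCC3 and ABCB6; 23.1%), against 11.6% of all tested genes, and the highest for 0 of 13, against 25.8%. Subclone 10 was the lowest for 2 of 13 (ABCC1 and ABCC5; 15.4%), against 31.8% of all tested genes, and subclone 11 for 3 (ABCD3 and ABCG2 among them; 23.1%), against 14.9%. These shares rest on single genes, and no test was made of them. After subtraction of each array's median, the lowest subclone stayed the same for 12 of 13 members and the highest for 11 of 13; the exceptions were ABCG2 at the low end and ABCA3 and ABCC10 at the high end.

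Of the 20 members below the table median, 7 were highest in subclone 10 (35%), against 21.1% of the 4785 genes of the table below the median, and 6 in subclone 11 (30%), against 30.3%. Among the 7 were ABCA4, ABCA12, ABCB1, ABCB4, ABCC8 and ABCD2. Subclone 10 is the array with the lowest upper quartile (6.75, against 7.02 in subclone 11 and 7.17 to 7.36 in the other 8). Its part in these values was not tested, and with 1 array per culture, biology and array quality cannot be told apart there. ABCA4, the retinal transporter of retinoids, was at 4.65 there and at most 4.08 in the others, and ABCC8 was at 4.65 and at most 4.10.

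**Figure D4:**
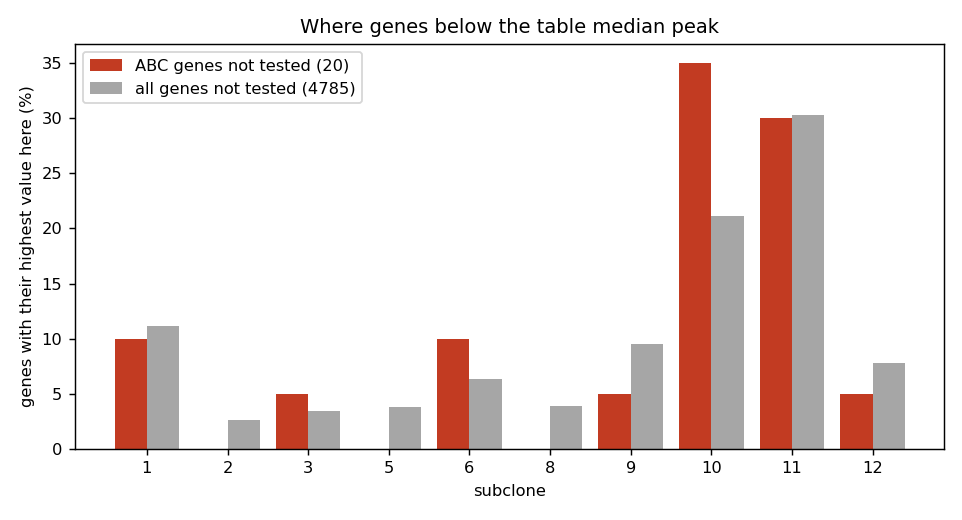
Percent of genes whose highest value lies in each subclone (horizontal axis), for the 20 ABC genes below the table median (red bars) and for all 4785 such genes (grey bars). Both sets peak most often in subclones 10 and 11, at 35% and 30% of the ABC genes against 21.1% and 30.3% of all such genes.

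The spread of the family was close to that of other genes. Among the tested members 10 of 13 spanned at least 1 log2 unit, or 2-fold (76.9%), against 63.3% of all tested genes, and 2 (ABCC2 and ABCC3) spanned at least 2 units, or 4-fold (15.4%), against 12.9%. The median range was 1.35 log2 units for tested members and 1.18 for all tested genes, and the median SD was 0.39 and 0.37. With limma's robust variance test, which compares each gene's variance with that of genes of like mean level, 0 of 13 members passed at an adjusted p of 0.05, against 0% of all tested genes, and the lowest adjusted p among members was 0.960. At an unadjusted p under 0.05 the count was 0 of 13, against 4.93% of all tested genes; ABCC3 had the lowest unadjusted value, 0.0568. The test's distribution is fitted to the variances of these same genes, so a low count does not show that members vary only by chance. The non-robust version of the fit called 1 member, ABCC3, at an unadjusted p under 0.05 (0.0482), against 4.52% of genes, and 0 after adjustment.

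When variances were set against the mean-variance trend by a chi-square test, it called 3 of 13 members (23.1%), against 18.8% of all tested genes. These were ABCC3 (adjusted p = 9.97e-06), ABCA1 (adjusted p = 0.000891) and ABCC2 (adjusted p = 0.00161). ABCC2 was not called without subclone 9 (adjusted p = 0.253), whereas ABCC3 and ABCA1 were called without any single subclone (highest adjusted p 0.000436 and 0.0387). ABCC5 (adjusted p = 0.0561) and ABCC4 (adjusted p = 0.0915) did not pass. After adjustment both limma fits, robust and non-robust, called 0 of the 7095 tested genes, so these 3 calls depend on the choice of test.

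**Figure D5:**
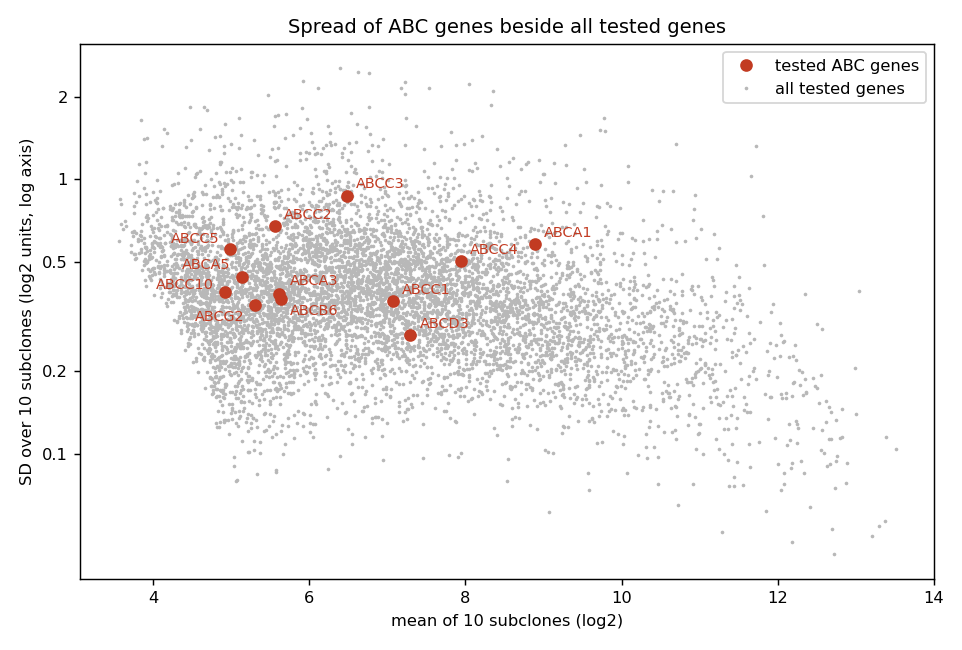
SD over the 10 subclones (log2 units, vertical log axis) against the mean log2 value (horizontal axis) for 12 of the 13 tested ABC genes (red, named) and all 7095 tested genes (grey). The named genes lie within the cloud, from ABCD3 (SD 0.27) to ABCC3 (SD 0.87), and the median over all 13 was 0.39 against 0.37 for all tested genes.

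Genes that work with the transporters were followed through lists. Among all tested genes 63.3% spanned 2-fold and 18.8% passed the chi-square test, and the shares of the lists are read against these. In the glutathione and xenobiotic list 8 of 14 tested genes spanned 2-fold (57.1%). SLC7A11, the cystine importer that feeds glutathione synthesis, and GSR, glutathione reductase, were both highest in subclone 9, at 5.20 and 6.75 against at most 4.74 and 5.90 elsewhere. SLC7A11 was tested only through this subclone, which held the highest value of 25.8% of all tested genes. In the sterol efflux list 7 of 11 spanned 2-fold (63.6%). Its widest ranges were those of APOE, an acceptor of ABCA1-exported lipid, at 3.73 in subclone 9 and 6.19 in subclone 1, and PLTP, a phospholipid transfer protein, at 6.76 in subclone 10 and 9.05 in subclone 9. APOE reached the table median only in subclone 1. In both lists 0 genes passed limma's robust test, also at an unadjusted p under 0.05. GSTO1 and AHR in the glutathione list (14.3%) and APOE and PLTP in the sterol list (18.2%) were called by the chi-square test, shares close to or below the share of all tested genes. APOE was tested only through its value in subclone 1, which also widens its variance. Its call is therefore not independent of the filter.

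Among peroxisome genes 10 of 18 tested spanned 2-fold (55.6%), against 63.3% of all tested genes. PXMP3 (peroxin PEX2) had 5.39 in subclone 10 and 5.49 in subclone 11, against 6.69 to 7.92 elsewhere. ABCD3 was lowest in subclone 11 (6.79). PXMP3 was the only list member past limma's robust test at an unadjusted p under 0.05 (0.0447), and 0 passed after adjustment. The chi-square test called 2 (11.1%), against 18.8% of all tested genes. Of the heme and iron-sulphur genes 12 of 18 spanned 2-fold (66.7%), close to the 63.3% of all tested genes. NFS1, the cysteine desulphurase, was at 6.89 in subclone 10 and at least 8.29 elsewhere. Like PXMP3 and PLTP, it was lowest in subclone 10, which held the lowest value of 31.8% of all tested genes. In the heme and iron-sulphur list 0 genes passed limma's robust test at an unadjusted p under 0.05 and 2, NFS1 and SLC25A38, passed the chi-square test (11.1%).

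Family relatives outside the naming rule were ABCE1 and ABCF1 to ABCF3, soluble ATP-binding proteins of ribosome function, the peptide transporter subunits TAP1 and TAP2, and the chloride channel CFTR. Of the 5 tested, 3 spanned 2-fold (60%), 0 passed limma's robust test at an unadjusted p under 0.05, and 1 (TAP1, from 6.08 in subclone 2 to 7.97 in subclone 1) passed the chi-square test (20%), shares close to those of all tested genes. ABCF1 was at 6.59 in subclone 10, the lowest subclone for 31.8% of all tested genes, and at least 7.26 elsewhere.

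The genes whose pattern was most like that of ABCC2, the member of the widest range, were sought among the 7082 tested genes outside the family. Pearson's r over the 10 subclones, all on the same arrays, was highest for AHDC1 (0.94), CHI3L1 (0.93), a secreted chitinase-like protein, and AHR (0.92), the aryl hydrocarbon receptor, a sensor of foreign and endogenous aromatic compounds. Like ABCC2, AHR was highest in subclone 1 (9.80) and lowest in subclone 9 (8.39). The lowest r was that of SUPT3H (-0.94), which was at 5.62 in subclone 9 and 4.47 in subclone 1. These are the extremes of 7082 values over 10 points, given as a description of likeness.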

How the data were processed

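The 10 samples were 1-colour Affymetrix arrays, 1 per subclone. The log2 values were deposited by the authors as 1 value per gene symbol, made with RMA per the submitters' processing notes: background correction, quantile normalization and probe summary. The log base follows from RMA and from the values (2.73 to 13.70). The array annotation, the software version and the joining of probe sets per symbol were not given in the sources used here. Arrays have no counts, and their number limits the precision.

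Members, class and partner lists were chosen with earlier results of these data known. Named genes were all pumps, the 15 tested members of largest range (13 were tested), the member farthest from the other 9 in each subclone, planned pairs, the 3 most like and the least like gene for the widest member, and the 2 widest genes per partner list; some genes and 1 pair are not reported here, and others named in the text were chosen after their values were seen. Variance tests used limma 3.58.1 (R 4.3.3; 9 degrees of freedom per gene, prior 4.32) with Benjamini-Hochberg adjustment over 7095 genes; limma code was tested on simulated data. Correlations used 100000 permutations, or all orders for fewer than 10 subclones. Python 3.11.15 was used elsewhere. Symbols and promoters came from RefSeq tables (GRCh38.p14): 33 of 33 members matched by symbol and 23 had a promoter window. Alternatives were array scaling, filters, thresholds, tests and each subclone left out.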

Additional observations from a re-analysis of the deposited data

Results flagged for a closer look

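In 7 of the 33 members 1 subclone stood apart from the remaining 9 by Dixon's gap ratio, above its 95% critical value for 10 values; chance marks about 1 in 20 groups of normal values. Among tested members this was 1 of 13, against 12.5% of all tested genes, and among members below the table median 6 of 20, against 12.8% of all such genes. ABCB6 was at 4.70 in subclone 9, below 5.53 to 6.05 in the others. Above the others in subclone 10 were ABCA4 at 4.65 (others at most 4.08), ABCC8 at 4.65 (at most 4.10), ABCB1 at 4.12 (at most 3.58) and ABCB4 at 4.12 (at most 3.53). ABCC9 was at 4.18 in subclone 9 (others at most 3.77), and ABCA11P at 4.14 in subclone 11 (others at most 3.85). With the median deviation of tested genes on each array subtracted, the ratios of ABCC9 and ABCA11P were below the critical value (0.401 and 0.314). With each array's median subtracted instead, ABCC9 was below it (0.456) and ABCA11P stayed above it (0.518). The 6 members other than ABCB6 lay below the table median in every subclone, and subclone 10 is the array with the lowest upper quartile; the part of the arrays in these values was not tested.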

How the results depend on the processing

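The count of members past the variance test was 0 with limma's robust and non-robust fits, under both array scalings, both other filters and each subclone left out (0 to 0), and 3 with the chi-square test, in which ABCC5 also passed without a filter (adjusted p = 0.00767). Both limma fits called 0 of all 7095 tested genes in the main setting, so the repeated count of 0 does not show stability. The counts above the table median (13 to 13 with each subclone left out) and spanning 2-fold (9 to 10) kept within 1.5 times under all alternatives run. Such counts have unlike totals under other filters. In the main setting 10 of 13 members spanned 2-fold, a higher share than the 63.3% of all tested genes. With no filter it was 13 of 33, a lower share than the 42.3% of all genes. Without a filter, which adds members below the table median, the ranges of the class scores were 0.48 for lipid, 0.29 for organelle and 0.30 for other members, against 1.12, 0.68 and 1.23, and 7 members in place of 1 had an outlying subclone. With each subclone left out, score ranges were 0.71 to 0.81 for pumps, 0.88 to 1.13 for lipid, 0.40 to 0.69 for organelle and 0.73 to 1.23 for other members (ABCC10 alone, lowest without subclone 8). The correlation of ABCC1 with ABCC3 then lay between 0.65 and 0.84, of ABCA1 with ABCG1 between -0.54 and -0.03 and of ABCB1 with ABCG2 between -0.71 and -0.36. With the median deviation of tested genes subtracted, a setting added after seeing the data, ABCA1 with ABCG1 reversed (0.0489); the cause was not tested. No paired analysis was possible because all samples form 1 group. RMA compresses weak signals, which limits what can be seen for the 20 members below the table median.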
